A study of Mus musculus with 12 samples.

Results

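The comparison described here set c-KIThi long-term hematopoietic stem cells (LT-HSCs) of mice with chronic myeloid leukemia (CML) against c-KIThi LT-HSCs of normal mice. It was made on 6 of the 12 RNA-Seq libraries, 3 per group, and covered the autosomal genes that passed a low-count filter, 14095 of the 48795 genes counted. The other 6 libraries were c-KITlo LT-HSCs of the same kinds of mice. CML mice carried Tal1-tTA and tetO-BCR/ABL1 transgenes, in which the Scl (Tal1) promoter drives a tetracycline-controlled activator in stem and progenitor cells, so that BCR-ABL is made once doxycycline is withdrawn. The labels call the normal animals B6 mice, whereas the methods describe controls that received marrow of the same transgenic line and stayed on doxycycline, and which of these gave the libraries is not settled by the sources used here. In the methods, CD45.2 donor marrow was transplanted into lethally irradiated CD45.1 recipients, mice were 6 to 12 weeks old, and analysis took place 10 weeks after transplant. LT-HSCs were sorted as lineage-negative cells with Sca-1, c-KIT and CD150 but without Flt3 and CD48, and c-KIThi cells were those within the gate that held the 30% of control LT-HSCs with the highest surface c-KIT, which was also applied to CML cells.

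c-KIT, the receptor for stem cell factor, activates MAP kinase, PI3 kinase and STAT pathways, and BCR-ABL, the fused tyrosine kinase that causes CML, feeds into the same pathways without a ligand. Immediate early genes are transcribed within minutes of such signals and do not need new protein, because their promoters are bound beforehand by factors such as SRF and CREB. Many encode transcription factors of the AP-1, EGR and KLF families, and others encode proteins that shorten the response, such as phosphatases of MAP kinases and proteins that destabilise mRNAs.

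Library depth was 9730576 to 13213021 gene counts in CML and 7753878 to 9843191 in normal c-KIThi LT-HSCs, and 26.7% to 37.1% of HTSeq entries in CML and 24.4% to 28.3% in normal libraries lay on genes. Normal library 1 stood apart, with the lowest scaling factor (0.704) and 10823 genes at 10 counts or more, against 12325 to 13781 in the other 5 libraries. Sex differed completely with disease: all 3 CML libraries had 68.4, 69.9 and 123 CPM of Y-linked *Eif2s3y* and no *Xist* count, whereas the normal libraries had 0, 0.126 and 0.127 CPM of *Eif2s3y* and 9.83, 176 and 18.5 CPM of *Xist*. Effects of CML and of sex therefore cannot be told apart, which is why autosomal genes were followed. Of the genes that mark LT-HSCs, *Procr* and *Slamf1* (CD150) were detected in all 6 libraries. *Cd48*, which the sort selected against, lay at 13.7 CPM or less but was counted in all libraries except CML library 3. *Flt3*, also selected against, lay at 13.6 to 26.0 CPM in CML and at 6.94 CPM or less in normal libraries. Summed marker levels were 519 to 1473 CPM in CML and 278 to 348 CPM in normal libraries for T and NK cells (*Cd3g* and *Il7r* at 0 in all 6), 627 to 1568 and 287 to 622 CPM for mast cells and basophils (*Mcpt1* and *Mcpt2* at 0), 2258 to 3574 and 732 to 2302 CPM for neutrophils, and 136 to 199 and 98.1 to 140 CPM for B cells (*Cd79a* at 0). They were 4103 to 4468 and 5890 to 16222 CPM for megakaryocytes, 691 to 1271 and 626 to 1211 CPM for monocytes, 4606 to 7380 and 4737 to 7564 CPM for erythroid cells, and 644 to 861 and 488 to 566 CPM for endothelial and stromal cells (*Dcn* at 0). The part of other cells in the results below was not tested, and in these sorted populations fewer cells of a type and less RNA per cell cannot be told apart.

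Of the autosomal genes, 2 passed the test, and both are immediate early genes. *Junb* and *Zfp36* rose in CML c-KIThi LT-HSCs (0.0142% of the autosomal genes tested), at an adjusted p under 0.05 by edgeR's quasi-likelihood test with Benjamini-Hochberg adjustment. No autosomal gene fell (0%). At an unadjusted p under 0.05, 497 genes (3.53%) lay higher and 442 (3.14%) lower in CML, and DESeq2 called 107 (0.759%) higher and 73 (0.518%) lower, while limma-voom with sample weights called 65 and 15. All 3 CML libraries lay above all 3 normal libraries at 1124 genes (7.97%) and below them at 899 (6.38%), which is the background for the counts given below. Without normal library 1 these shares rose to 13.3% above and 15.0% below, which is the background for every count given without that library. The median log2 fold change of all autosomal genes was 0.03.

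**Figure D1:**
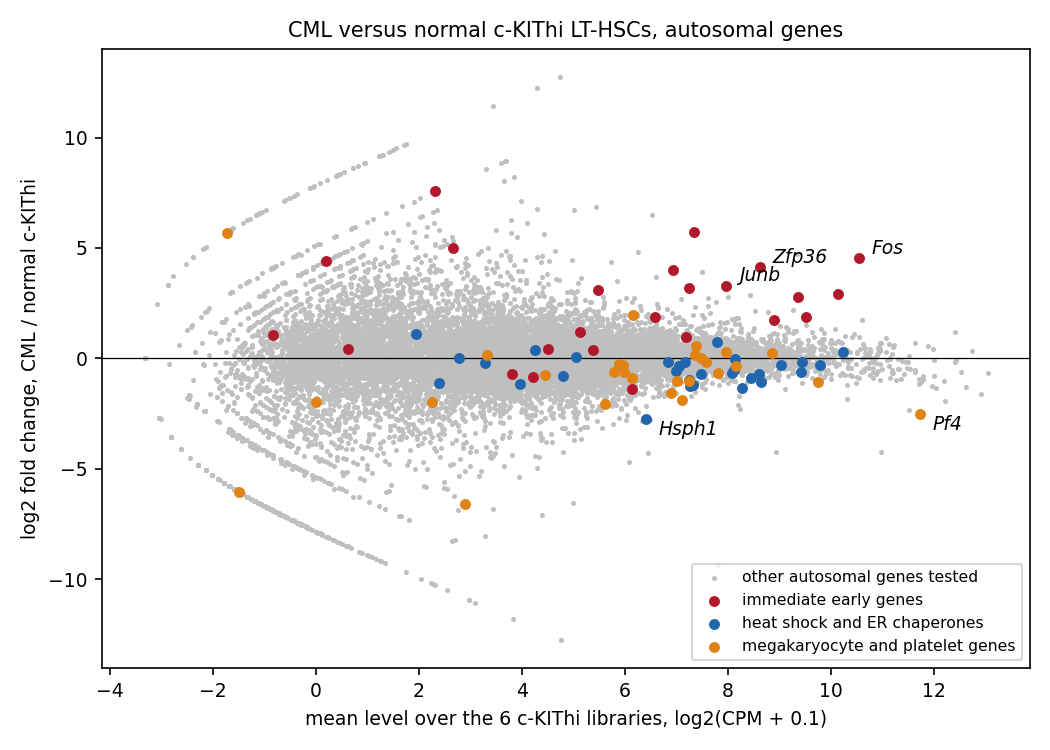
Log2 fold change of CML over normal c-KIThi LT-HSCs (y axis) against the mean level over the 6 libraries as log2(CPM + 0.1) (x axis), one point per autosomal gene tested, with 3 gene lists in colour. Most immediate early genes lie above 0, *Junb* at 3.30 and *Zfp36* at 4.14, while *Hsph1* lies at -2.73 and *Pf4* at -2.50.

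*Junb* encodes an AP-1 transcription factor that restrains the growth of myeloid progenitors. It had 644, 403 and 312 CPM in the CML libraries, against 30.6, 48.2 and 59.1 CPM in the normal libraries. Every CML library lay above every normal library, and the lowest CML value was several times the highest normal one. *Junb* was 9.85-fold higher in CML (log2 fold change 3.30 ± 0.44 (SE), edgeR adjusted p = 0.0324). The gene lies on the minus strand of chromosome 8, at 84974484 to 84978718 of GRCm38.

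*Zfp36* encodes tristetraprolin, which binds AU-rich elements and speeds the decay of cytokine mRNAs. Its levels were 1102, 693 and 444 CPM in the CML libraries, against 19.4, 48.2 and 59.5 CPM in the normal libraries, again without overlap. It was 17.6-fold higher in CML (log2 fold change 4.14 ± 0.56, edgeR adjusted p = 0.0324), and it lies on the minus strand of chromosome 7, at 28376784 to 28380253. The size of both differences was steadier than their calls. When 1 library was left out, the log2 fold change stayed between 2.97 and 3.52 for *Junb* and between 3.75 and 4.47 for *Zfp36*, but the adjusted p of *Junb* became 0.106 and 0.0985 without CML c-KIThi libraries 1 and 2, and 0.327, 0.383 and 0.158 without normal c-KIThi libraries 1, 2 and 3. It also became 0.0796 and 0.0607 without CML c-KITlo libraries 2 and 3 and 0.0513 without normal c-KITlo library 3. The c-KITlo libraries are not compared here, but they enter the filter, the scaling, the spread and the adjustment of the fit. For *Zfp36* the same libraries ended the call, with an adjusted p of 0.315 without normal c-KIThi library 1 and values equal to those of *Junb* for the others. With the 6 c-KIThi libraries fitted alone, both adjusted p-values were 0.125.

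The sequences before the RefSeq start sites of both genes are shown because they were the 2 genes called, and those of *Btg2* and *Dusp1* because they were the members of the group that held a CRE motif. Each is the 250 bases upstream of the start on GRCm38.p6, 5′ to 3′ along the gene, at chr8:84978749-84978998 (minus strand) for *Junb*, chr7:28379229-28379478 (minus strand) for *Zfp36*, chr1:134079156-134079405 (minus strand) for *Btg2* and chr17:26508473-26508722 (minus strand) for *Dusp1*. Capitals mark matches to the motifs searched.
Junb: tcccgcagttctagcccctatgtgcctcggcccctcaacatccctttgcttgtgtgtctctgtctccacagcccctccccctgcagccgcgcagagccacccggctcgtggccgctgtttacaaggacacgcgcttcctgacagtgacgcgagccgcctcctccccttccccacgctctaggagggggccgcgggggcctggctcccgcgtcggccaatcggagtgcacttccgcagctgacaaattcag
Zfp36: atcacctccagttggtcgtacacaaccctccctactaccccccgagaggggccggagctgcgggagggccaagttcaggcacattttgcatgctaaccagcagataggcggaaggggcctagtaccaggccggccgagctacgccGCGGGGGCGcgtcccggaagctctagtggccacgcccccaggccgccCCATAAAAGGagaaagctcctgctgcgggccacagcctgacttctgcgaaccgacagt
Btg2: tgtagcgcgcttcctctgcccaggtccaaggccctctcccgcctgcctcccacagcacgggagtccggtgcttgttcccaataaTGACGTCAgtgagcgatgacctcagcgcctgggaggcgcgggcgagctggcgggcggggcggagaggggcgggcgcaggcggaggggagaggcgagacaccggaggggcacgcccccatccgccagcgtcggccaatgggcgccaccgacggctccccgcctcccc
Dusp1: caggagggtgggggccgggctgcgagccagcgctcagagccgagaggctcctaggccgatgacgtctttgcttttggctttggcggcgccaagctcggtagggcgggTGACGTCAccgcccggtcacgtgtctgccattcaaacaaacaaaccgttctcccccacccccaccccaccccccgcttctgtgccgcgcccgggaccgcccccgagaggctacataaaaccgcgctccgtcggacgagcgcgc

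The motifs searched on both strands were the CRE bound by CREB (TGACGTCA), the AP-1 site (TGACTCA or TGAGTCA), the EGR site (GCGTGGGCG or GCGGGGGCG) and the CArG box bound by SRF. Among 31396 autosomal promoter windows of this length in the RefSeq table, 1.58% held the CRE, 4.50% the AP-1 site, 3.08% the EGR site and 1.41% the CArG box. Windows were found for 12 of the 14 immediate early genes whose CML libraries all lay above the normal ones. Of these 12, 2 held the CRE (*Btg2*, starting 166 bases before the start site, and *Dusp1*, 143 bases before it), 4 the EGR site (*Fosb*, *Klf2*, *Klf4* and *Zfp36*), 1 the CArG box (*Zfp36*, 58 bases before the start site) and none the AP-1 site. The EGR match of *Zfp36* began 105 bases before the start site and did not overlap its CArG box, and the *Junb* window held none of the motifs. A match is a description of these letters only.

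The other AP-1 genes lay in the same direction with 1 exception, and none of them passed the test. *Fos*, the partner of JUN proteins in AP-1, had 4951, 2383 and 1248 CPM in CML, against 98.7, 53.6 and 216 CPM in normal libraries (log2 fold change 4.54 ± 0.76, edgeR adjusted p = 0.14). *Jun* had 978, 1520 and 949 CPM in CML, against 384, 285 and 274 CPM in normal libraries (1.87 ± 0.38, adjusted p = 0.206). Neither gene overlapped between the groups. *Fosb* had 41.1, 107 and 91.8 CPM in CML and 7.52, 7.84 and 12.7 CPM in normal libraries. *Atf3*, a stress-induced relative of AP-1 factors, had 7.5, 17.1 and 4.72 CPM in CML and 1 count in all in the normal libraries, which gave a ratio of 217 (95% exact interval 38.6 to 8592). *Fosl2* was the exception, with 8.69, 71.5 and 36.1 CPM in CML, against 108, 111 and 90.3 CPM in normal libraries, a difference with a log2 fold change of -1.41 ± 0.85 and an adjusted p of 0.834. *Jund* overlapped between the groups.

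Zinc finger factors of the EGR and KLF families followed. *Egr1*, which holds HSCs in quiescence in mice, had 632, 786 and 791 CPM in CML, against 189, 226 and 238 CPM in normal libraries (log2 fold change 1.76 ± 0.48, edgeR adjusted p = 0.557). *Klf2*, a quiescence factor of lymphocytes and endothelium, had 406, 361 and 186 CPM in CML, against 0.578, 3.04 and 14.1 CPM in normal libraries (5.74 ± 1.07, adjusted p = 0.153). *Klf6* had 385, 317 and 120 CPM in CML, against 28.8, 29.6 and 32.1 CPM in normal libraries (3.18 ± 0.56, adjusted p = 0.143). For all 3 genes the CML libraries lay clear of the normal ones, and the normal libraries were close together for *Egr1* and *Klf6*. *Klf4* had 12.9, 20.4 and 2.75 CPM in CML and less than 1 CPM in each normal library.

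Genes that limit signals or growth were mixed. Of 17 genes of MAP kinase feedback tested, 4 lay above and 1 below without overlap (4 and 5 without normal library 1). With all 6 libraries the shares were 23.5% and 5.88%, against 7.97% and 6.38% of all autosomal genes. Of the 17, 8 had positive and 9 negative log2 fold changes, and the median was -0.11. *Dusp1*, which dephosphorylates MAP kinases, had 3583, 1601 and 768 CPM in CML, against 222, 203 and 360 CPM in normal libraries (log2 fold change 2.92 ± 0.60, edgeR adjusted p = 0.21). *Btg2*, an antiproliferative partner of the mRNA deadenylase, had 313, 311 and 68.9 CPM in CML, against 6.36, 16.2 and 20.3 CPM in normal libraries (4.01 ± 0.75, adjusted p = 0.153). *Ier2* had 1649, 1062 and 743 CPM in CML, against 223, 142 and 144 CPM in normal libraries (2.76 ± 0.51, adjusted p = 0.153). In *Junb*, *Zfp36*, *Fos*, *Klf2*, *Klf6*, *Dusp1*, *Btg2*, *Ier2* and *Ier3*, CML library 1 was the highest and CML library 3 the lowest of the CML libraries. *Dusp2*, a further MAP kinase phosphatase of the feedback list, had 234, 197 and 127 CPM in CML, against 22.8, 32.8 and 64.2 CPM in normal libraries.

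**Figure D2:**
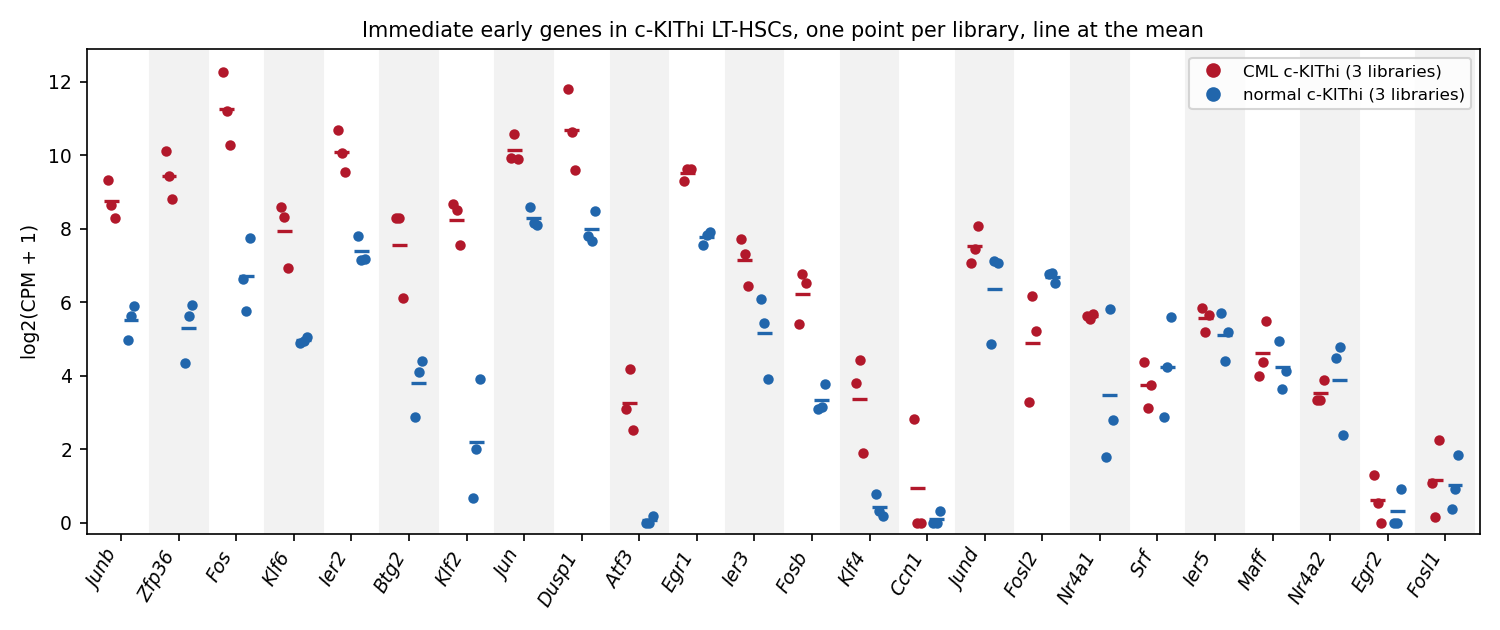
Levels of the 24 immediate early genes tested, as log2(CPM + 1), in 3 CML (red, left) and 3 normal (blue, right) c-KIThi libraries, ordered by edgeR p. In the 14 genes from *Junb* to *Klf4* every red point lies above every blue point, and in *Fosl2* every red point lies below.

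Counted over the list, 24 of 27 immediate early genes were tested, 2 passed, and 14 had all 3 CML libraries above all 3 normal libraries, against 7.97% of all autosomal genes. A single member, *Fosl2*, lay below. Their median log2 fold change was 2.32, against 0.03 for all genes, and 11 of them were called by DESeq2. The summed level was 6293 to 15216 CPM in CML and 1487 to 1783 CPM in normal libraries. The count was 14 again when normal library 1 was left out, where the background became 13.3%, and the median stayed between 1.92 and 2.94 when single c-KIThi libraries were left out.

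The c-KITlo fraction, which shares no library with this comparison, had been made from the same kinds of mice, and the sources used here do not say whether a c-KIThi and a c-KITlo library came from 1 animal. There, 20 of the 24 genes had all CML libraries above the normal ones, against 12.4% of all autosomal genes, and 3 were called (*Jun*, *Egr1* and *Btg2*), against 0.0851% of all autosomal genes in either direction. *Junb* had 1369, 910 and 772 CPM in CML and 332, 210 and 273 CPM in normal c-KITlo LT-HSCs, and *Zfp36* had 1766, 1137 and 794 CPM in CML and 181, 137 and 227 CPM in normal c-KITlo LT-HSCs. The normal c-KITlo libraries lay above the normal c-KIThi libraries for both genes. The difference between the fractions did not pass the test for any autosomal gene (0% called by edgeR, smallest adjusted p = 0.294), although 1613 genes reached an unadjusted p under 0.05 and DESeq2 called 219. Between 43.9% and 60.6% of entries lay on genes in c-KITlo libraries, more than in any c-KIThi library.

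**Figure D3:**
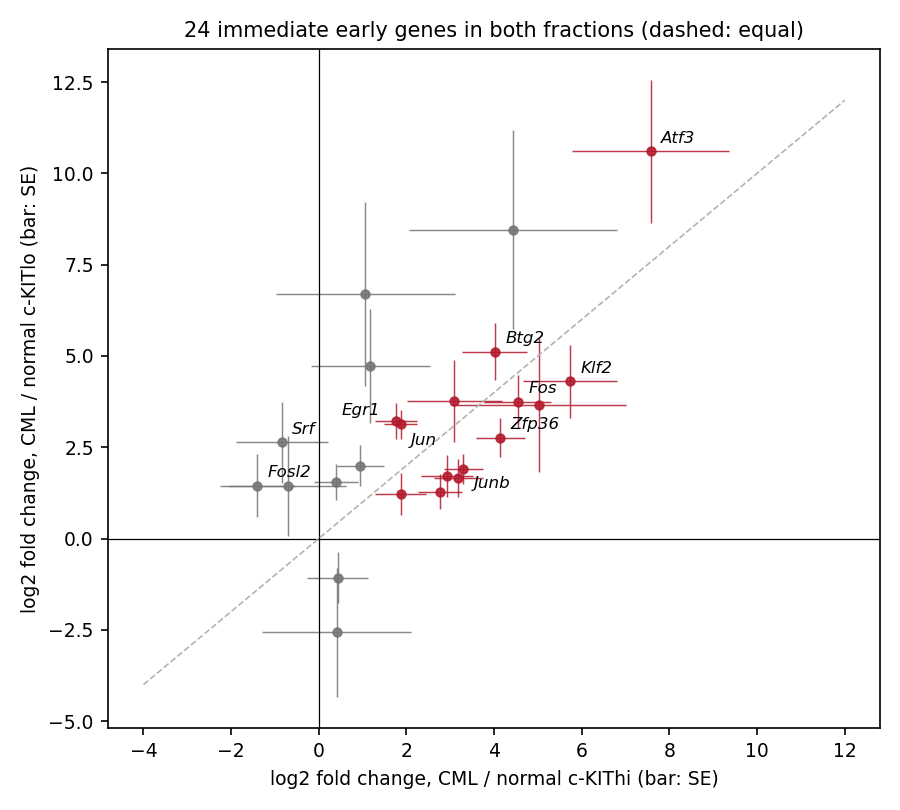
Log2 fold change of CML over normal in c-KITlo (y axis) against that in c-KIThi LT-HSCs (x axis) for the 24 immediate early genes, with bars of 1 SE, red where all CML c-KIThi libraries lay above the normal ones. All 14 red points lie above 0 on both axes, and *Fosl2* lies left of 0 on the c-KIThi axis and above 0 on the c-KITlo axis.

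Outside this family, the rule for naming genes gave 5 more that lay higher in CML c-KIThi LT-HSCs. *Cd27*, a TNF receptor family member that is present on progenitors and lymphocytes, had 311, 258 and 258 CPM in CML, against 44.8, 61.1 and 57.1 CPM in normal libraries (log2 fold change 2.34 ± 0.36, edgeR adjusted p = 0.0915). In c-KITlo cells *Cd27* had 156, 162 and 194 CPM in CML and 160, 79.4 and 180 CPM in normal libraries. Its difference between the fractions had an unadjusted edgeR p of 0.0012 and did not pass (adjusted p = 0.294). *Cd27* was named for its c-KIThi values, which enter that difference, so the unadjusted p is not independent of the choice. *Elf1*, an ETS factor of blood cells, had 386, 745 and 203 CPM in CML and 53.3, 67.9 and 73.4 CPM in normal libraries. *Vim*, the intermediate filament vimentin, had 217, 170 and 202 CPM in CML and 59.8, 52.0 and 53.7 CPM in normal libraries. These 3 genes did not overlap between the groups, which the rule for naming them required, and the normal libraries were within a narrow range.

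*Rcvrn*, the calcium sensor recoverin of photoreceptors, was counted 840 times in the CML libraries and 2 times in the normal libraries, which gave a ratio of 318 (95% exact interval 87.9 to 2633). *Tpm3-rs7*, a related sequence of a tropomyosin gene, had 55.5, 42.0 and 42.9 CPM in CML and 3.76, 3.16 and 4.72 CPM in normal libraries, but reads of a near-identical copy can be split between it and its parent, so its level is uncertain. Both genes were also called in the c-KITlo comparison, with adjusted p-values of 0.0343 for *Rcvrn* and 0.0413 for *Tpm3-rs7*.

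Of the heat shock and endoplasmic reticulum chaperone genes, 10 of 31 lay lower in CML c-KIThi LT-HSCs without overlap. None passed the edgeR test, and DESeq2 called 3 lower (*Hsph1*, *Hspa8* and *Hspa4*). These proteins fold or refold other proteins, and the cytosolic members are induced by HSF1. *Hsph1*, a cochaperone that exchanges the nucleotide of HSP70, had 19.8, 32.7 and 13.9 CPM in CML, against 279, 88.0 and 73.8 CPM in normal libraries (log2 fold change -2.73 ± 0.65, edgeR adjusted p = 0.439). *Hspa8*, the constitutive HSP70, had 270, 241 and 269 CPM in CML, against 512, 674 and 443 CPM in normal libraries (-1.06 ± 0.34, adjusted p = 0.665). The CML libraries of *Hspa8* were close together and below every normal library. *Hspa4*, another HSP110-type cochaperone, had 68.9, 76.1 and 126 CPM in CML and 146, 232 and 268 CPM in normal libraries. *Hspa5*, the chaperone BiP, had 539, 508 and 560 CPM in CML and 842, 834 and 820 CPM in normal libraries. *Canx*, the lectin chaperone calnexin, had 109, 120 and 293 CPM in CML and 522, 433 and 365 CPM in normal libraries.

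The count of 10 below and none above stood against 6.38% and 7.97% of all autosomal genes, and the median log2 fold change of the list was -0.51. The other 21 members overlapped between the groups, among them *Dnajb1*, the HSP40 cochaperone, with 378, 273 and 175 CPM in CML and 124, 158 and 218 CPM in normal libraries. Scaling by medians of ratios gave 12 members below, and leaving out normal library 1 gave 11, where the background below became 15.0%. In c-KITlo cells 6 lay below and 3 above, against 7.9% and 12.4% of all autosomal genes there, with a median of -0.04.

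Megakaryocyte and platelet genes also mark a platelet-biased fraction of LT-HSCs. Of 28 members, 8 lay lower in CML (28.6%, against 6.38% of all autosomal genes) and 1 higher (3.57%, against 7.97%). Their median log2 fold change was -0.65. None passed the edgeR test, and DESeq2 called 4 lower, *Pf4* and *F2rl2* among them. *Pf4*, the chemokine of platelet granules, had 844, 1640 and 584 CPM in CML, against 10783, 4242 and 2335 CPM in normal libraries (log2 fold change -2.50 ± 0.80, edgeR adjusted p = 0.676). *F2rl2*, a thrombin receptor of platelets, had 24.2, 10.5 and 22.3 CPM in CML, against 149, 54.9 and 31 CPM in normal libraries. *Clu*, which encodes clusterin, had 50.7, 72.9 and 58.6 CPM in CML, against 275, 172 and 88.6 CPM in normal libraries. In these 3 genes normal library 1, the one that stood apart, was the highest, and normal library 3 the lowest of the normal ones.

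*Vwf*, the carrier of factor VIII, had 46.2, 56.8 and 46.2 CPM in CML and 76.5, 99.2 and 98.3 CPM in normal libraries, here with normal library 1 the lowest of the 3. *Itgb3*, a subunit of the fibrinogen receptor, was the member that lay higher, with 55.4, 131 and 156 CPM in CML and 10.1, 44.6 and 32.5 CPM in normal libraries. *Itga2b*, the other subunit of that receptor, overlapped between the groups. Without normal library 1, 12 members lay below and 3 above, against 15.0% and 13.3% of all autosomal genes in that setting, and the median was -0.43.

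**Figure D4:**
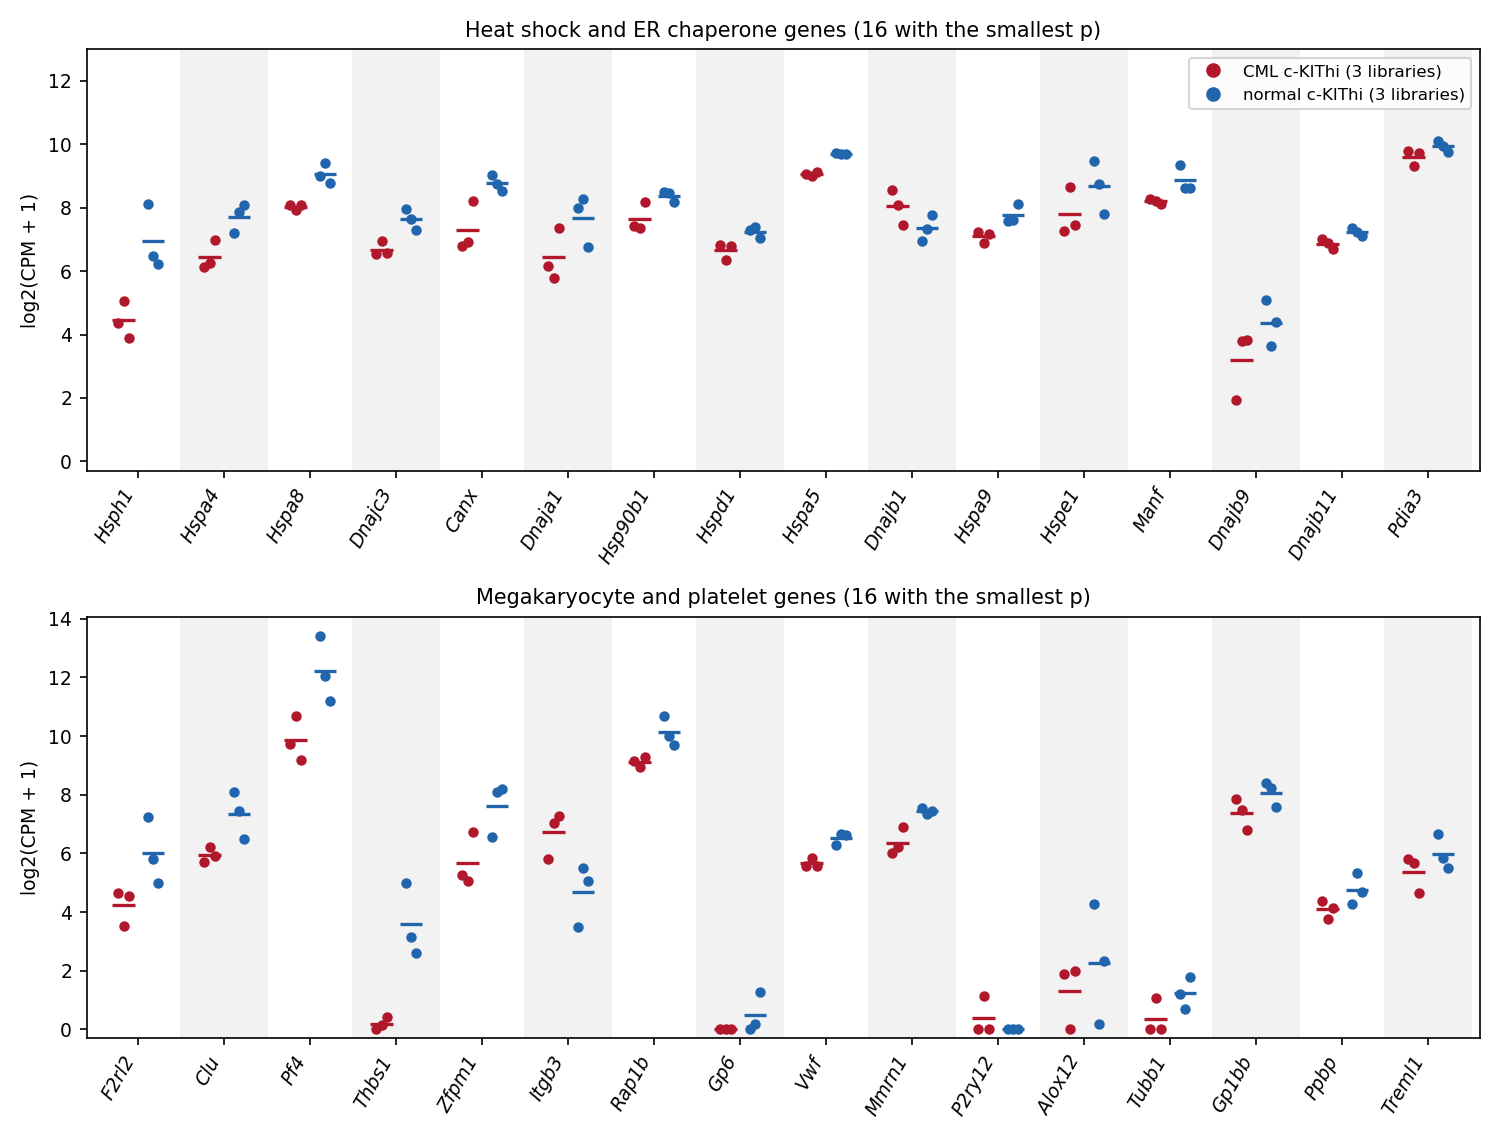
Levels as log2(CPM + 1) in 3 CML (red, left) and 3 normal (blue, right) c-KIThi libraries for the 16 chaperone genes (top) and the 16 megakaryocyte and platelet genes (bottom) with the smallest edgeR p. All red points of *Hsph1*, *Hspa8* and *Hspa5*, and of *Pf4*, *F2rl2* and *Clu*, lie below the blue ones, while those of *Itgb3* lie above.

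The remaining genes at the lower end were of mixed kinds. *Serpine2*, a protease inhibitor, had 20.4, 13.3 and 12 CPM in CML, against 140, 40.1 and 41.4 CPM in normal libraries (log2 fold change -2.27 ± 0.52, edgeR adjusted p = 0.419). *Mycn*, a MYC family factor of HSCs, had 37.8, 45.5 and 68.6 CPM in CML, against 211, 149 and 97.4 CPM in normal libraries (-1.59 ± 0.44, adjusted p = 0.557). *Cd200*, a ligand that restrains myeloid cells, had 12.9, 17.9 and 32.1 CPM in CML, against 99.6, 117 and 83.9 CPM in normal libraries (-2.26 ± 0.58, adjusted p = 0.508). None of these overlapped between the groups, which the rule for naming them required. *Rhot1*, which tethers mitochondria to motors, *Noa1*, *Plek2* and *BC052040* also lay lower without overlap.

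*Prg2* and *Prg3*, the major basic proteins of eosinophil granules, had few or no counts in CML c-KIThi LT-HSCs, and the order in c-KITlo cells was another. *Prg3* had no count in the 3 CML libraries and 19.8, 7.46 and 57.0 CPM in the normal libraries, at least 283-fold lower in CML when its group is set to 3 counts. *Prg2* had 0, 0.221 and 1.87 CPM in CML, against 167, 12.1 and 1159 CPM in normal libraries. In c-KITlo cells *Prg2* had 125, 77.6 and 0.802 CPM in CML and 36.4, 2.10 and 7.93 CPM in normal libraries, which overlapped, and *Prg3* had 4.05, 1.47 and 0.0422 CPM in CML and no count in normal libraries. A list of 6 eosinophil genes was drawn up after these values were seen, so its counts are a description only. All 6 had negative log2 fold changes in c-KIThi and positive ones in c-KITlo cells. All 6 had an unadjusted edgeR p under 0.05 for the difference between fractions. Values that enter this difference had been seen when the genes were chosen, so the count cannot be set against the share of all genes. None passed after adjustment. In normal c-KIThi cells, *Ear1* and *Ear6* of this list were counted in library 3 alone (5.86 and 50.9 CPM). *Epx*, the eosinophil peroxidase and also of this list, had no CML count and 0, 0.126 and 34.2 CPM in the normal libraries, nearly all in library 3. *Igha*, an immunoglobulin heavy chain of plasma cells, also looked up afterwards, had 1 count in CML and 14.7, 2.40 and 3.31 CPM in the normal libraries, 194 times less in CML (95% exact interval 34.3 to 7712). Whether a few eosinophils or plasma cells lay in the normal sorts was not tested.

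Among genes of the sort itself, the RNA of the receptor that defined the gate overlapped between the groups. *Kit* had 57.6, 104 and 218 CPM in CML, against 132, 143 and 129 CPM in normal libraries (log2 fold change -0.09 ± 0.74, edgeR adjusted p = 0.997), so the CML libraries spread on both sides of the normal ones. *Ly6a*, which encodes Sca-1, had 205, 248 and 75.0 CPM in CML, against 62.7, 50.1 and 56.7 CPM in normal libraries (1.64 ± 0.54, adjusted p = 0.676). In c-KITlo cells *Ly6a* had 111, 153 and 128 CPM in CML and 408, 186 and 856 CPM in normal libraries, the opposite order, and the difference between the fractions had an unadjusted edgeR p of 0.000564 that did not pass the adjustment. *Cd34* had 210, 148 and 257 CPM in CML and 80.4, 78.9 and 99.3 CPM in normal libraries. *Procr*, the receptor EPCR, had 63.7, 29.3 and 31 CPM in CML and 26.5, 11.5 and 18.1 CPM in normal libraries, and in c-KITlo cells its log2 fold change was -1.55. *Flt3*, which the sort selected against, had 26.0, 16.4 and 13.6 CPM in CML and 6.94, 0.126 and 4.84 CPM in normal libraries. In all, 4 of the 8 genes listed as sort markers lay above without overlap (50%, against 7.97% of all autosomal genes) and none below. These were *Ly6a*, *Cd34*, *Procr* and *Flt3*, of which *Cd34* and *Procr* were not used in the sort described. *Slamf1*, *Cd48* and *Ptprc* overlapped.

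Genes around the oncogene gave a mixed picture. The mouse *Bcr* gene had 5.28, 6.95 and 2.96 CPM in CML and 8.09, 8.22 and 42.2 CPM in normal libraries, and *Abl1* overlapped. The level of the transgene was not analysed here. Of 32 adaptors and STAT5 targets tested, 3 (9.38%) lay above and 6 (18.75%) below without overlap, against 7.97% and 6.38% of all autosomal genes. None of the 32 passed, and the median was 0.06 (-0.29 without normal library 1). *Socs3*, a feedback inhibitor of cytokine receptors, had 28.9, 22.5 and 12.3 CPM in CML, against 1.01, 0.379 and 1.78 CPM in normal libraries (log2 fold change 4.32 ± 1.06, edgeR adjusted p = 0.465). *Socs2*, a STAT5 target of the same family, had 17, 14.7 and 16.5 CPM in CML, against 116, 44.4 and 28.3 CPM in normal libraries (-1.97 ± 0.62, adjusted p = 0.665). The 2 SOCS genes thus lay in opposite directions, each without overlap. *Bcl2l1*, the survival factor BCL-XL and also a STAT5 target, had 30.9, 17.7 and 20.6 CPM in CML and 42.5, 46.7 and 60.3 CPM in normal libraries.

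Of 37 receptor genes for cytokines and chemokines, 8 (21.6%) lay above and 3 (8.11%) below, against 7.97% and 6.38% of all autosomal genes. Without normal library 1 the counts were 9 and 5, where all autosomal genes gave 13.3% above and 15.0% below. *Csf2rb*, the shared chain of the IL-3, IL-5 and GM-CSF receptors, had 26.1, 15.0 and 28.1 CPM in CML and 0, 0.379 and 2.29 CPM in normal libraries. *Cxcr4*, the homing receptor for CXCL12, had 3.83, 11.8 and 22.8 CPM in CML and 52.6, 52.6 and 97.6 CPM in normal libraries, and it was among the 3 below. *Csf2rb* and *Cxcr4* did not pass the test, with edgeR adjusted p-values of 0.682 each. Of 41 genes of the TNF/NF-κB response, 10 (24.4%) lay above and 2 (4.88%) below, with a median log2 fold change of 0.66. Without normal library 1 the counts were 11 and 4. The member with the smallest adjusted p, *Irf1*, had 42.9, 87.9 and 51.0 CPM in CML and 14.2, 29.7 and 35.6 CPM in normal libraries.

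Genes of mast cells and basophils gave 4 of 14 members above (28.6%, against 7.97% of all autosomal genes) and none below. Without normal library 1 they gave 7 above and none below. *Cpa3*, a mast cell protease, had 403, 23.4 and 17.4 CPM in CML and 3.90, 4.43 and 7.39 CPM in normal libraries. *Fcer1a*, the IgE receptor chain, had 163, 59.1 and 36.5 CPM in CML and 0, 0 and 2.17 CPM in normal libraries. CML library 1 was the highest by far for both genes. The list's median was 1.55, and 0.76 to 3.32 when single c-KIThi libraries were left out. Of 10 T and NK cell genes tested, 5 lay above without overlap, whereas the other 5 had negative log2 fold changes and overlapped, and the median was 0.48 (0.21 to 1.43 when single c-KIThi libraries were left out). Among those above, *Nkg7*, a protein of cytotoxic granules, had 1084, 748 and 308 CPM in CML and 200, 140 and 159 CPM in normal libraries.

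Of 22 genes of antigen presentation by MHC class I, 3 lay above (13.6%, against 7.97% of all autosomal genes) and none below. The median log2 fold change was 0.47. Without normal library 1 these counts were 8 and 1, and the median ran between 0.16 and 0.66 when single c-KIThi libraries were left out. *H2-T23*, a nonclassical class I molecule, had 703, 404 and 267 CPM in CML and 135, 126 and 124 CPM in normal libraries (log2 fold change 1.83 ± 0.47, edgeR adjusted p = 0.508). *Tap2*, a peptide transporter chain, had 165, 108 and 111 CPM in CML and 49.0, 46.8 and 63.7 CPM in normal libraries. *H2-K1*, *H2-D1* and *B2m* overlapped between the groups. In c-KITlo cells the median was -0.76. For the difference between fractions, 10 of the 22 had an unadjusted edgeR p under 0.05, against 1613 of all 14095 autosomal genes. None of them passed after adjustment (smallest edgeR adjusted p of any autosomal gene 0.294). Class I genes share sequence, so the split of reads between *H2-T23* and its neighbours is uncertain.

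Of 54 E2F targets of DNA replication, 7 lay below (12.96%, against 6.38% of all autosomal genes) and none above. Their median was -0.17 (-0.30 to -0.11 when single c-KIThi libraries were left out). Of 65 G2/M and mitosis genes, 5 lay above and 2 below, with a median of 0.23 (0.05 to 0.31). These G2/M shares, 7.69% above and 3.08% below, did not exceed the 7.97% and 6.38% of all autosomal genes. Without normal library 1, 16 E2F targets lay below and 2 above, and 14 G2/M genes lay above and 5 below, against 15.0% below and 13.3% above for all autosomal genes. *Pttg1*, the securin that holds sister chromatids, had 453, 364 and 229 CPM in CML and 151, 114 and 71.4 CPM in normal libraries. *Ccne2*, a G1/S cyclin, had 9.88, 31.4 and 33.2 CPM in CML and 31.1, 157 and 126 CPM in normal libraries. Of 73 nuclear OXPHOS genes 4 lay below (5.48%, against 6.38% of all autosomal genes) and none above (4 and 6 without normal library 1). Their median was -0.22 (0.18 without normal library 1). Among the 4 was *Ndufc1*, with 251, 1350 and 1330 CPM in CML and 8421, 3592 and 2625 CPM in normal libraries. Of 76 ribosomal protein genes 4 lay below (5.26%, also under the share of all autosomal genes) and none above (5 and 9 without normal library 1). Their median was -0.0001 (0.17 without normal library 1). Among the 4 was *Rps29*, with 21, 157 and 135 CPM in CML and 225, 309 and 240 CPM in normal libraries. Genes with less than 1 kb of exon, *Rps29* but not *Ndufc1* among them, took 7.04% to 12.8% of gene counts in CML and 11.5% to 13.8% in normal libraries, a difference of -2.96 percentage points (exact permutation test, two-sided, p = 0.3, where 0.1 is the smallest possible). With the exonic length trend taken out, the median was -0.48 for nuclear OXPHOS genes and -0.23 for ribosomal protein genes. Whether transcript length caused any of these differences was not tested.

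**Figure D5:**
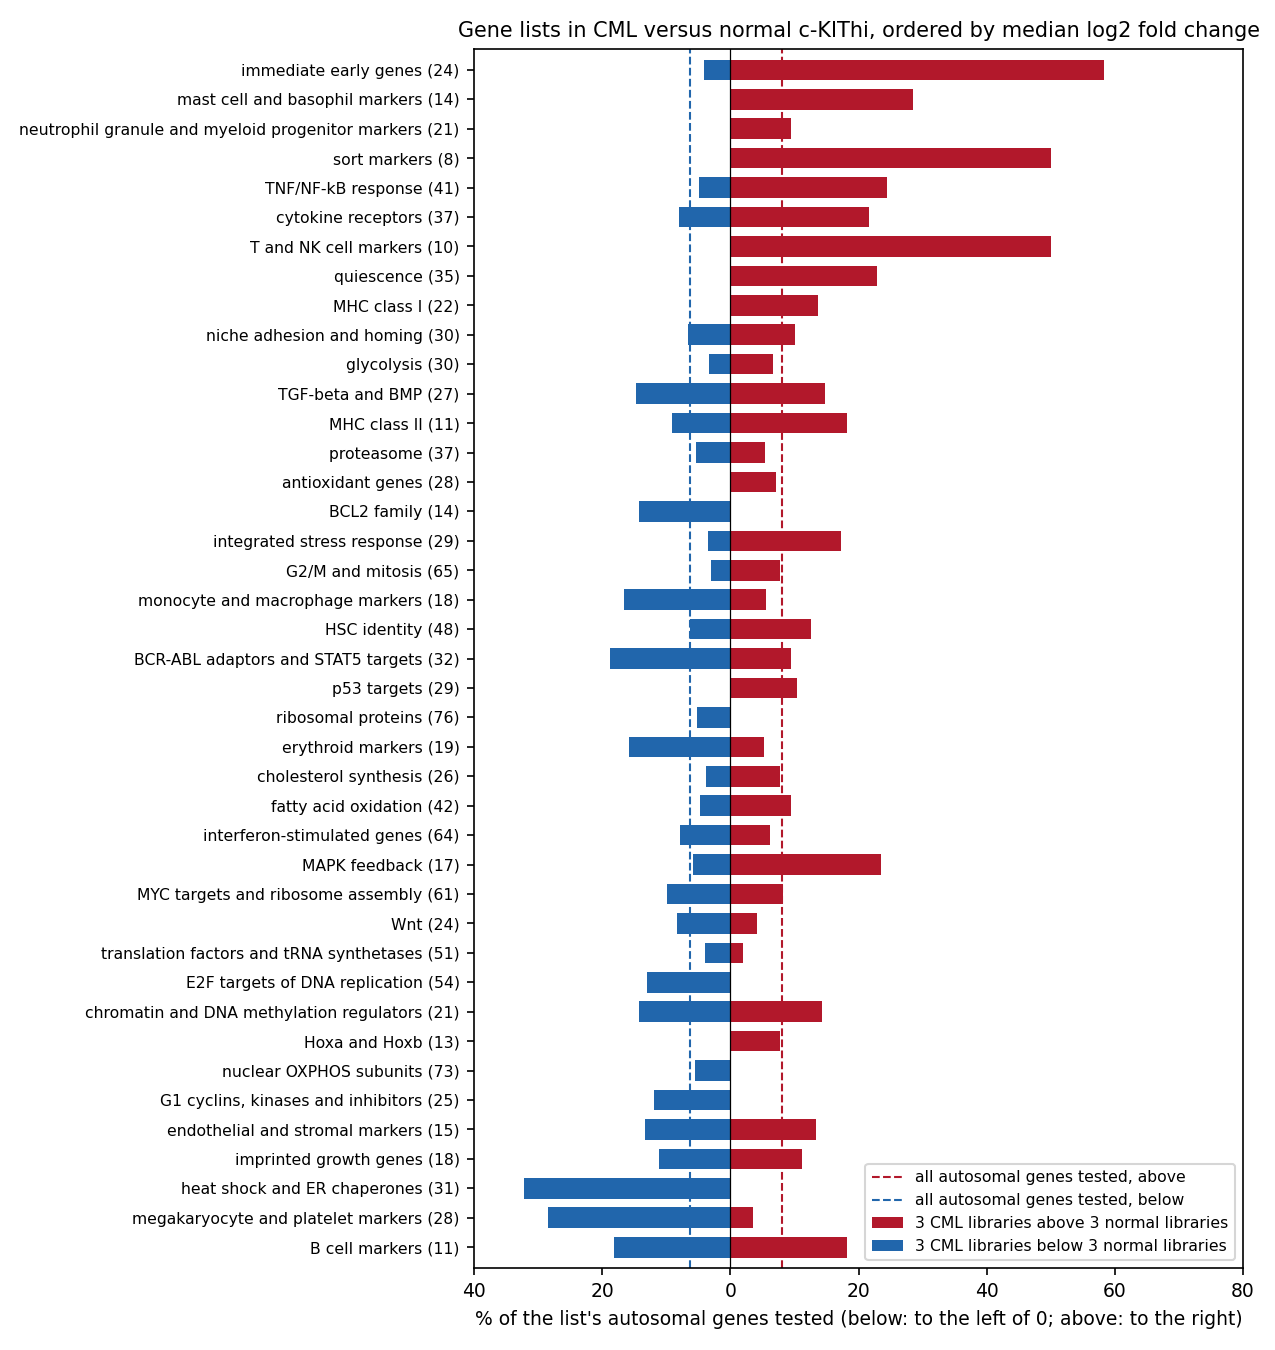
Share of each list's autosomal genes tested (number in parentheses) with all 3 CML libraries above (red, right) or below (blue, left) all 3 normal c-KIThi libraries, ordered by median log2 fold change, with dashed lines at the shares of all autosomal genes, 7.97% and 6.38%. Immediate early genes reach 58.3% above, and heat shock and chaperone genes reach 32.3% below.

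Across the 41 lists with a gene tested, immediate early genes had the highest share of members above (58.3%) and heat shock and chaperone genes the highest share below (32.3%), followed by megakaryocyte genes (28.6%). The eosinophil and plasma cell lists, drawn up after values were seen, were left out of this order and had 33.3% below each (2 of 6 genes). Interferon-stimulated genes gave 4 above and 5 below of 64 (6.25% and 7.81%, against 7.97% and 6.38% of all autosomal genes), with a median of -0.08. Without normal library 1 they gave 9 and 12, where all autosomal genes gave 13.3% above and 15.0% below. *Tgtp2*, an interferon-induced GTPase, had 33.7, 32.5 and 21.3 CPM in CML and 102, 49.7 and 76.4 CPM in normal libraries. The integrated stress response gave 5 above and 1 below of 29 (17.2% and 3.45%), and 7 and 3 without normal library 1. Its members included *Vldlr*, with 29.2, 27.3 and 63.3 CPM in CML and 1.45, 0.253 and 3.06 CPM in normal libraries, and *Ddit3*, which encodes CHOP, with 99.7, 179 and 77.6 CPM in CML and 16.2, 45.9 and 32.1 CPM in normal libraries. Neither *Vldlr* nor *Ddit3* passed the test, with edgeR adjusted p-values of 0.557 and 0.682.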

How the data were processed

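RNA was measured in 12 libraries of sorted mouse LT-HSCs, 3 per group, and the 6 c-KIThi libraries were compared here. The labels state 4 biological replicates, and 3 per group were used. The values are raw read counts per gene that the authors deposited. The submitters' processing notes name STAR 2.5.3a, HTSeq 0.9.1, DRAGEN and DESeq2 1.22.2, with the mouse build GRCm38. Libraries were made with SMARTer amplification and Nextera XT, which do not mark strand, so overlapping and antisense genes are uncertain. The 5 HTSeq classes that name no gene were left out, so that 24.4% to 37.1% of entries remained in c-KIThi and 43.9% to 60.6% in c-KITlo libraries.

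Counts of all 4 groups were filtered with edgeR's filterByExpr, TMM-scaled and fitted with edgeR 4.0.16 (quasi-likelihood, R 4.3.3), with Benjamini-Hochberg adjustment over all genes tested, autosomal or not. CPM were computed on TMM-scaled sizes. DESeq2 1.42.0 and limma 3.58.1 (voom) served as alternatives, as did other scalings and filters, thinned libraries, a length correction, a replicate block and leaving out each library. The fits were tested on simulated data. The sources call the replicates biological and do not say whether each was 1 animal or a pool, so p-values measure the spread between these libraries. Ratios against few counts carry 95% exact intervals, which cover counting error only.

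Named genes were *Kit*, *Bcr*, *Abl1*, the sort markers, up to 12 genes each way by size of change among those called with a mean of 20 CPM in the higher group, completed by smallest p among genes without overlap, and up to 4 members per list. Members and lists were chosen with earlier results of these data known. Other members that the text names were chosen after their values were seen. Promoters were taken from RefSeq (GRCm38.p6).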

Additional observations from a re-analysis of the deposited data

How the results depend on the processing

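Against 2 autosomal genes called higher, DESeq2 called 107, limma-voom 65 and the fit with no filter on low counts 67, whereas the replicate block, the 6 c-KIThi libraries alone and those 6 with the replicate block each called 0, and leaving out single libraries gave 0 to 7. Against 0 called lower, DESeq2 called 73, limma-voom 15 and no filter 43. Against 0 for the difference between fractions, DESeq2 called 219, no filter 131, and leaving out single libraries gave 0 to 408 (408 without normal c-KITlo library 2, 5 without normal c-KITlo library 3 and 1 without CML c-KITlo library 3). The 7 higher calls came without normal c-KITlo library 1, and 4 came without normal c-KITlo library 2. The cause was not tested.

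With the replicate block the adjusted p was 0.234 for *Junb* and 0.238 for *Zfp36* (0.170 for both in the 6 libraries with the block). Same-numbered CML and normal c-KIThi libraries correlated at 0.084, -0.020 and 0.036 in their deviations from group means, and the other pairs at -0.082 to 0.074. Such deviations cancel out within a group of 3, so these values cannot settle whether the numbers pair the libraries. Both genes passed in 11 of 22 alternatives and kept their direction in all 22.

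Of 1728 values of 79 genes named, 9 turned direction, in 3 genes that overlapped between the groups. When single libraries were left out, *Kit* gave log2 fold changes of -0.78 to 0.26 (above 0 without CML c-KIThi library 1 or 2), and *Abl1* gave -0.071 to 0.73 (below 0 without normal c-KIThi library 1). *Abl1* also gave -0.063 with limma-voom. *Cd48* gave -0.25 with the length trend taken out, -0.46 in the 6 libraries with the replicate block, and -0.33 to 1.09 without single libraries (below 0 without CML c-KIThi library 1 or 2 or normal c-KIThi library 2). The median of all autosomal genes moved to -0.71 with no filter, -0.13 without CML c-KIThi library 3 and 0.10 without normal c-KIThi library 3. List counts without normal c-KIThi library 1 were chosen after seeing the data.

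With 3 libraries per group, exact tests of single values cannot go below 0.1. Disease, sex and, where controls were B6 mice, genotype and treatment cannot be told apart.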
